A study of Homo sapiens with 4 samples.

Results

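The genes of pyrimidine and deoxynucleotide synthesis were examined in Huh7 cells, a line established from a human hepatocellular carcinoma, with and without METTL16 knockout (KO). The 9 genes were listed by name as enzymes of the route, by a rule that uses no measured value although earlier results of these data were known, and comprise CAD, DHODH, UMPS, CTPS1 and CTPS2 for pyrimidine nucleotides and RRM1, RRM2, TYMS and TK1 for deoxynucleotides. All 9 were found among the 18806 genes of the table, and all 9 had a mean of at least 1 TPM over the 4 libraries, as did the 11971 genes that were tested. All libraries came from a single Huh7 clone carrying Cas9. Its cells were infected with a lentiviral non-targeting guide (sgNS, 2 libraries, genotype given as WT) or with a METTL16 guide (sgMETTL16, 2 libraries, called METTL16 knockdown in the labels and KO here), and were then kept under hygromycin B. The sources used here do not say which METTL16 guide or guides these libraries carry, so an effect of METTL16 loss cannot be told apart from another effect of a guide. The comparison asks how the mRNA levels of these enzymes differed upon METTL16 KO.

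Cells build pyrimidines on a small ring that is made from glutamine, carbon dioxide and aspartate and is then joined to a ribose phosphate to give UMP, from which UTP and CTP are formed. Deoxynucleotides for DNA arise when ribonucleotide reductase removes an oxygen from the ribose of these nucleotides, and thymidylate is made either from dUMP or by salvage of thymidine. Several of the genes for deoxynucleotide supply are known to be transcribed mainly in S phase. Dividing tumour cells depend on this supply, and inhibitors of several of these enzymes are used as drugs.

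Values are TPM, transcript shares of a fixed library total, which are also divided by transcript length, so that levels can be compared between genes. Log2 fold changes are METTL16 KO minus sgNS on log2(TPM + 0.1), with limma's standard error (SE) and a Benjamini-Hochberg adjusted p over all 11971 genes. A gene was called at an adjusted p under 0.05. Over all genes tested the median log2 fold change was 0.16. Scaling the libraries so that their typical gene has the same level (median-ratio scaling) brought this to -0.0016, so the main changes of the 9 genes are also given relative to that median. The depth of the libraries is unknown, since TPM keeps no read counts, and 11723 to 12074 genes were listed at 1 TPM or more per library. METTL16 measured 26.3 and 25.1 TPM in the sgNS libraries against 17.6 and 18.8 TPM in the METTL16 KO libraries, with a log2 fold change of -0.50 (SE 0.062, adjusted p 2.4e-05), so its transcript was lower but not absent. Hepatocyte lineage genes were abundant in each library, for example albumin (ALB) at 7437 to 10079 TPM. These genes also differed between the groups, with 6 of 7 called higher in METTL16 KO and 1 (APOB) lower. Of all genes, 50.1% were called higher and 25.6% lower. SERPINA1 was no longer called with median-ratio scaling (adjusted p 0.88), nor ALB with quantile normalization (adjusted p 0.13). Alpha-fetoprotein (AFP) measured 1737 and 1793 TPM in sgNS against 10387 and 10197 TPM in METTL16 KO. Of 11 markers of blood, endothelial and fibroblast cells, 3 reached a mean of 1 TPM, their summed level was 10.3 to 11.3 TPM in sgNS and 14.2 to 15.9 TPM in METTL16 KO, and the blood marker PTPRC did not exceed 0.48 TPM. Of those 3, the macrophage marker CD68 rose (3.40 and 2.72 TPM in the sgNS libraries, 8.86 and 8.57 TPM in the METTL16 KO libraries), while PECAM1 and PDGFRB fell by 0.75 and 0.67 on the log2 scale. The part of these marker changes in the values of the 9 genes was not tested. In bulk RNA, less RNA per cell and fewer cells expressing a gene cannot be told apart.

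Of the 9 genes, 3 fell (CAD, RRM1 and RRM2), 3 rose (UMPS, CTPS1 and TK1) and 3 were not called (DHODH, CTPS2 and TYMS). Among all genes tested, 25.6% were called lower and 50.1% were called higher, so the counts alone say nothing particular about this pathway. With median-ratio scaling 6 of the 9 genes were lower and 2 were higher, where 36.5% and 36.4% of all genes were lower and higher. Their median log2 fold change was -0.071, against 0.16 over all genes. The changes were small. The log2 fold changes ranged from -0.31 for CAD to 0.43 for UMPS, and 0 of 9 genes passed an unadjusted p under 0.01 together with a log2 fold change of 1 or more in either direction, which 11.4% of all genes did. At an adjusted p under 0.05 without the fold threshold, limma called 6 of them. The groups did not overlap in 7 of the 9 genes, with 4 lower and 3 higher, compared with 87.4% of all genes. The plot of levels by library shows the 4 values of each gene.

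**Figure D1:**
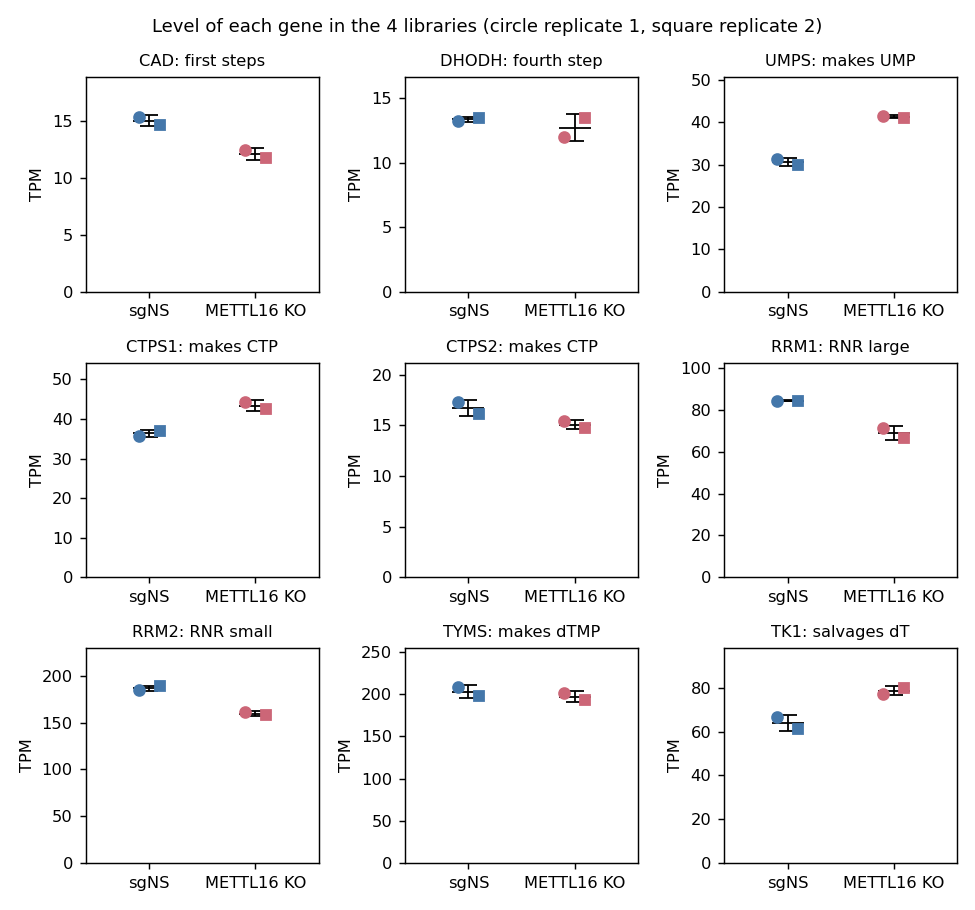
TPM (linear axis from 0) of the 9 genes in the 2 sgNS and 2 METTL16 KO libraries, where circles are replicate 1, squares are replicate 2, and bars are the mean and SD of each group. The groups are apart in 7 genes and overlap in DHODH and TYMS.

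Both ends of the route to UMP changed, in opposite directions. Gene positions on GRCh38 are those of GENCODE release 44. CAD lies on chromosome 2 from 27217369 to 27243943, DHODH on chromosome 16 from 72008588 to 72027664 and UMPS on chromosome 3 from 124730433 to 124749273, all on the plus strand. CAD, a single protein that carries out the first steps of pyrimidine synthesis and is their point of control, measured 15.3 and 14.7 TPM in the sgNS libraries against 12.4 and 11.7 TPM in the METTL16 KO libraries. Each METTL16 KO library was lower than either sgNS library, with means of 15.0 ± 0.48 TPM in sgNS and 12.1 ± 0.51 TPM upon METTL16 KO (SD, n = 2 each). Its log2 fold change was -0.31 (SE 0.071, adjusted p 0.0021), or -0.47 relative to the median gene. UMPS, which joins the ring to ribose phosphate and forms UMP, measured 31.2 and 30.0 TPM in the sgNS libraries against 41.5 and 41.1 TPM in the METTL16 KO libraries. As deposited this was the largest change of the 9 genes, with means of 30.6 ± 0.86 and 41.3 ± 0.35 TPM (SD, n = 2 per group). Its log2 fold change was 0.43 (SE 0.051, adjusted p 1.6e-05), or 0.27 relative to the median gene, which placed it at percentile 71.2 of the changes of all genes tested. DHODH, the mitochondrial enzyme that oxidizes the ring between the steps of CAD and UMPS, measured 13.2 and 13.5 TPM in the sgNS libraries against 12.0 and 13.5 TPM in the METTL16 KO libraries. The groups overlapped, and the log2 fold change was -0.071 (95% interval -0.24 to 0.099, adjusted p 0.41). Relative to the median gene DHODH was at -0.23, and with median-ratio scaling it was called lower, with an adjusted p of 0.018.

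Inside each library, where dividing by a single scaling factor has no effect, UMPS stood at 2.04 and 2.05 times the TPM of CAD in sgNS and at 3.34 and 3.51 times in METTL16 KO. The ratio thus had a mean of 2.04 ± 0.0080 in sgNS and 3.42 ± 0.12 in METTL16 KO (SD, n = 2 per group), a difference of 0.74 on the log2 scale. DHODH stood at 0.862 and 0.920 times CAD in sgNS and at 0.965 and 1.15 times in METTL16 KO. A two-sided exact permutation test of 2 against 2 cannot give a ratio a p under 0.333, and both of these ratios gave that value.

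The sequences before the start sites of CAD and UMPS are shown because these enzymes, at the 2 ends of the route to UMP, went in opposite directions. Promoter sequences were taken from RefSeq (GRCh38.p14), where all 9 genes were matched with 13 start sites. The 250 bases before each start were searched on both strands for 6 motifs, namely CCAAT (the CCAAT box), GGGCGG (the GC box), TTTCCCGC and TTTGGCGC (forms of the E2F site), TTTGAA (the CHR element of cell cycle genes) and CACGTG (the E-box). Matches are in capitals, do not overlap each other in the windows printed, and the sequences run 5′ to 3′ on the strand of the gene. The CAD window is chr2:27217119-27217368 on the plus strand and the UMPS window is chr3:124730202-124730451 on the plus strand, of which the last 19 bases lie in an annotated exon of UMPS.
CAD: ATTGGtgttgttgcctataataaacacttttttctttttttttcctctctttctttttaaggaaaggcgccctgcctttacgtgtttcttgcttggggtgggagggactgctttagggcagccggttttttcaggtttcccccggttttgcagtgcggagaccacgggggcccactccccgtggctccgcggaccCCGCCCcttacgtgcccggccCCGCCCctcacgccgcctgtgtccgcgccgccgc
UMPS: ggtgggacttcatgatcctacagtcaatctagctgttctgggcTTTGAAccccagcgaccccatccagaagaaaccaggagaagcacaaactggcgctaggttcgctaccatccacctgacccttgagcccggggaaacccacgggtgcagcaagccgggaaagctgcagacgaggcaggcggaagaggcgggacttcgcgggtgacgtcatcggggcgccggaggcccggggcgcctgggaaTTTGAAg
The CAD window holds a pair of GC boxes and, at its far end, a CCAAT box in reverse orientation, whereas the UMPS window holds neither and has 2 copies of TTTGAA. Across all 35116 promoters of this length in the table, 42.6% hold the GC box, 32.0% hold CCAAT and 13.3% hold TTTGAA. GC boxes were found before 7 of the 9 genes, CCAAT before 5 and TTTGAA before 2. A gene was counted if any of its start sites had a match, while the shares are per promoter, so counts and shares are not of like units. The letters CACGTG, present in 6.34% of promoters, were found before DHODH only among the 9 genes. Of the 250 bases of the DHODH window, 156 lie in annotated exons of DHODH. These matches describe the letters in the window and are not evidence of binding.

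CTP is made from UTP by the CTP synthases CTPS1 and CTPS2, which are paralogs. CTPS1 lies on chromosome 1 from 40979300 to 41012565 (plus strand) and CTPS2 on chromosome X from 16587999 to 16712936 (minus strand). CTPS1 measured 35.8 and 36.9 TPM in the sgNS libraries against 44.3 and 42.4 TPM in the METTL16 KO libraries. Both METTL16 KO libraries lay above both sgNS libraries, and CTPS1 rose with a log2 fold change of 0.25 (SE 0.050, adjusted p 0.00083). Relative to the median gene CTPS1 was at 0.091, and it was no longer called with median-ratio scaling (adjusted p 0.13) or quantile normalization (adjusted p 0.088). CTPS2 measured 17.3 and 16.13 TPM in the sgNS libraries against 15.4 and 14.8 TPM in the METTL16 KO libraries. All METTL16 KO values were again on one side of sgNS, but the log2 fold change of -0.15 (95% interval -0.30 to 0.0050) was not called, with an adjusted p of 0.073. With median-ratio scaling CTPS2 was called lower, at -0.31 with an adjusted p of 0.0016. The ratio of CTPS1 to CTPS2 was 2.07 and 2.29 in sgNS against 2.88 and 2.87 upon METTL16 KO, so that the share of CTPS1 was higher in both METTL16 KO libraries (exact permutation p 0.333, the smallest possible).

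**Figure D2:**
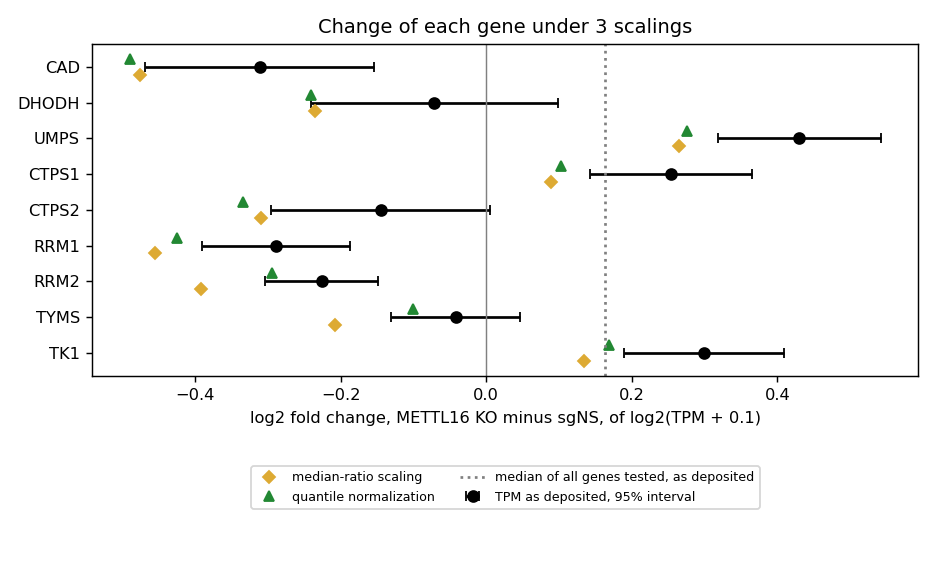
Log2 fold change (METTL16 KO minus sgNS) of each gene from TPM as deposited, with limma's 95% interval, and after 2 other scalings; the dotted line is the median of all genes tested, 0.16. CAD, RRM1 and RRM2 lie below 0 and UMPS, CTPS1 and TK1 above 0 in each. DHODH, CTPS2 and TYMS also lie below 0 in each, but their intervals reach 0 as deposited.

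Ribonucleotide reductase makes all deoxynucleotides from ribonucleotides. It consists of the large subunit RRM1, which holds the catalytic and regulatory sites, and a small subunit, which is RRM2 in dividing cells and can be RRM2B, the p53-inducible form. RRM1 lies on chromosome 11 from 4094707 to 4138932 and RRM2 on chromosome 2 from 10120698 to 10211725, both on the plus strand. RRM1 measured 84.4 and 84.1 TPM in the sgNS libraries against 71.3 and 66.6 TPM in the METTL16 KO libraries. RRM2 measured 184.7 and 188.8 TPM in the sgNS libraries against 161.5 and 157.7 TPM in the METTL16 KO libraries. Both subunits were lower in each METTL16 KO library than in either sgNS library. RRM1 fell with a log2 fold change of -0.29 (SE 0.046, adjusted p 0.00016) and RRM2 fell with -0.23 (SE 0.035, adjusted p 0.00015), or -0.45 and -0.39 relative to the median gene.
The ratio of RRM2 to RRM1 was 2.19 and 2.25 in sgNS and 2.26 and 2.37 in METTL16 KO, a difference of 0.063 on the log2 scale (exact permutation p 0.333). RRM2B, in contrast, measured 13.5 and 12.4 TPM in the sgNS libraries against 17.1 and 16.0 TPM in the METTL16 KO libraries. RRM2B rose with a log2 fold change of 0.35 (SE 0.074, adjusted p 0.0012), and it remained called at 0.18 with median-ratio scaling (adjusted p 0.038). The level of RRM2 was thus 13.7 and 15.3 times that of RRM2B in sgNS, but 9.46 and 9.89 times in METTL16 KO. This difference of -0.58 on the log2 scale had an exact permutation p of 0.333, the smallest the design allows. RRM2 remained the more abundant small subunit in each of the 4 libraries.

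Thymidylate comes from TYMS, which methylates dUMP and is the target of fluorouracil, or from TK1, the cytosolic thymidine kinase of S phase. TYMS lies on chromosome 18 from 657653 to 673578 (plus strand) and TK1 on chromosome 17 from 78174091 to 78187233 (minus strand). TYMS was the most abundant of the 9 genes and measured 208.8 and 197.7 TPM in the sgNS libraries against 201.9 and 192.8 TPM in the METTL16 KO libraries. The groups overlapped, and the log2 fold change was -0.042 (95% interval -0.13 to 0.046, adjusted p 0.35). Relative to the median gene TYMS was at -0.21, and it was called lower with median-ratio scaling (adjusted p 0.00067) and with quantile normalization (-0.10, adjusted p 0.041). TYMS shares sequence with other genes on the opposite strand, and 967 of its 2421 annotated exon bases also lie in exons of ENOSF1. The study's methods name a stranded mRNA kit, but whether strand was used in the counting is not given in the sources used here. ENOSF1 was listed at 11.5 to 14.2 TPM over the 4 libraries, far below TYMS, and was called lower (-0.21, adjusted p 0.031). TYMSOS, whose exons share 193 bases with those of TYMS, was listed at 6.94 to 12.6 TPM and was called higher (0.51, adjusted p 0.0049). TK1 measured 66.7 and 61.5 TPM in the sgNS libraries against 77.4 and 80.2 TPM in the METTL16 KO libraries. The groups did not overlap, and TK1 rose with a log2 fold change of 0.30 (SE 0.050, adjusted p 0.00022), or 0.14 relative to the median gene. TK1 was also called higher with median-ratio scaling, at 0.13 with an adjusted p of 0.030.
The deoxynucleotide genes thus differed by enzyme, with the reductase lower and the thymidine kinase higher as deposited. TK2, the mitochondrial thymidine kinase, measured 6.45 and 6.50 TPM in the sgNS libraries against 7.70 and 7.14 TPM in the METTL16 KO libraries, with a log2 fold change of 0.19 that was not called (adjusted p 0.075). The ratio of TK1 to TK2 overlapped between groups, at 10.3 and 9.46 in sgNS and 10.1 and 11.2 in METTL16 KO.

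The sequences of RRM1 and TK1 are given because the first fell and the second rose although both supply DNA precursors. The RRM1 window is chr11:4094435-4094684 on the plus strand. The TK1 window is chr17:78187205-78187454 on the minus strand and precedes the outer of 2 start sites in RefSeq, and 29 of its bases lie in an annotated exon of TK1.
RRM1: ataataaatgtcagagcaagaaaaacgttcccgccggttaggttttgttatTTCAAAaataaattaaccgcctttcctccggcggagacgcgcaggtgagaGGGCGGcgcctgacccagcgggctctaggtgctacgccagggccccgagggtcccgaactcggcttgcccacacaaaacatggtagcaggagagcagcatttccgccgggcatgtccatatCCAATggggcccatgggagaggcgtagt
TK1: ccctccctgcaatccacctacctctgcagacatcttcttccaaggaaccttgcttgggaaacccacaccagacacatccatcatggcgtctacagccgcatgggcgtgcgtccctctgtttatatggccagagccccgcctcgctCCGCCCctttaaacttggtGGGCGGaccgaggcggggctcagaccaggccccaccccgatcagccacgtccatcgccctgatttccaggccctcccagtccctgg
The RRM1 window holds 1 GC box, 1 TTTGAA in reverse orientation and a CCAAT box between 28 and 24 bases before the start. The TK1 window holds 2 GC boxes, and before the inner start of TK1 there were 2 CCAAT boxes in reverse orientation, between 77 and 73 and between 46 and 42 bases upstream. Before the inner start of RRM2, 3 CCAAT boxes were found, which begin 123, 93 and 66 bases upstream. All 250 bases of that RRM2 window lie in annotated exons of RRM2. Of the 250 bases before the inner start of TK1, 181 lie in annotated exons of TK1. An exact match to the 2 E2F forms searched was found before TYMS only, as GCGGGAAA between 39 and 32 bases upstream. Other forms of the E2F site and near matches were not searched. TTTCCCGC in either orientation is present in 1.39% of all promoters. Of the motifs with a match before a called gene, none separated the genes that fell from those that rose. CCAAT preceded 3 genes that fell (CAD, RRM1 and RRM2), 1 that rose (TK1) and 1 that was not called (DHODH). The GC box also preceded genes of both directions, and TTTGAA preceded RRM1, which fell, and UMPS, which rose. The E2F forms and CACGTG had no match before a called gene and so could not separate them.

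**Figure D3:**
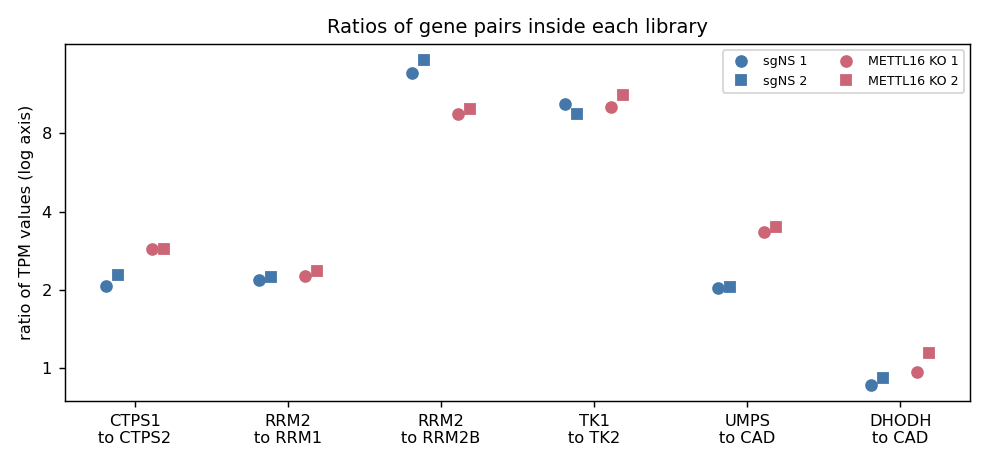
Ratio of the TPM values of 6 gene pairs inside each library (log axis), where circles are replicate 1 and squares are replicate 2. UMPS to CAD and CTPS1 to CTPS2 are higher and RRM2 to RRM2B is lower in both METTL16 KO libraries, while TK1 to TK2 overlaps.

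The order of levels also differed at neighbouring places. In sgNS, TYMS and RRM2 led at means of 203 ± 7.9 and 187 ± 2.9 TPM (SD, n = 2), followed by RRM1 at 84.2 ± 0.23 and TK1 at 64.1 ± 3.7 TPM. In METTL16 KO, TYMS and RRM2 led at 197 ± 6.4 and 160 ± 2.6 TPM, but TK1 at 78.8 ± 2.0 TPM stood above RRM1 at 68.9 ± 3.4 TPM. The libraries of TK1 and RRM1 did not overlap within either group. CTPS1 and UMPS came next in both groups, with means of 36.4 ± 0.77 and 30.6 ± 0.86 TPM for sgNS, then 43.4 ± 1.4 and 41.3 ± 0.35 TPM upon METTL16 KO. The lowest were CTPS2 at 16.7 ± 0.81, CAD at 15.0 ± 0.48 and DHODH at 13.4 ± 0.18 TPM in sgNS. In METTL16 KO these stood at 15.1 ± 0.44, 12.1 ± 0.51 and 12.7 ± 1.0 TPM, where CAD and DHODH overlapped, the only neighbours in either order that did. Summed over the 9 genes, the level was 657 and 643 TPM in sgNS and 638 and 621 TPM in METTL16 KO.

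The other enzymes of the pathway were taken from 4 lists, of which 51 of 52 genes had a row under the symbol given or an older one and 44 were tested. Of these, 16 were called lower and 19 called higher, with a median log2 fold change of 0.083 against 0.16 over all genes, of which 25.6% were lower and 50.1% higher. With median-ratio scaling 20 of the 44 were lower and 16 higher, beside 36.5% and 36.4% of all genes.
Salvage enzymes and nucleotide kinases return nucleosides to the pool and raise nucleoside monophosphates to triphosphates. Of 17 tested, 8 were lower and 6 were higher, with a median of -0.14, against 25.6% lower and 50.1% higher of all genes. UCK1 and UCK2, the uridine-cytidine kinases, went in opposite directions, with log2 fold changes of 0.72 (adjusted p 1.8e-07) and -0.31 (adjusted p 0.00066). UCK1 measured 53.6 and 50.0 TPM in the sgNS libraries against 84.2 and 86.0 TPM in the METTL16 KO libraries. CMPK1, which phosphorylates UMP and CMP, had a mean of 156 ± 2.6 TPM in sgNS and of 110 ± 0.59 TPM upon METTL16 KO (SD, n = 2 each) and fell by 0.51 on the log2 scale. In the family of nucleoside diphosphate kinases, NME7, NME3 and NME4 fell by 1.00, 0.77 and 0.46 on the log2 scale and NME6 rose by 0.56. NME1 and NME2 are neighbouring genes of similar sequence, so some reads could be split between them. NME2 fell by 0.14 while NME1 was not called (adjusted p 0.52). Of the remaining genes named by size, UPP1, a uridine phosphorylase, rose by 0.51 and UCKL1 rose by 0.44. CDA, UPP2 and CMPK2 were below the minimum level and were not tested.

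The list for deoxynucleotide control and breakdown had 14 tested genes, of which 8 were higher and 2 were lower, with a median of 0.28. The 8 include RRM2B, which is a subunit of the reductase and not a breakdown enzyme. Of all genes, 50.1% were higher and 25.6% lower. SAMHD1, which cleaves dNTPs, measured 28.9 and 26.5 TPM in the sgNS libraries against 48.1 and 46.1 TPM in the METTL16 KO libraries, which gave a log2 fold change of 0.76 (adjusted p 5.0e-07). DPYD, the first enzyme of pyrimidine breakdown, measured 28.6 and 28.0 TPM in the sgNS libraries against 51.8 and 50.5 TPM in the METTL16 KO libraries, which gave a log2 fold change of 0.85 (adjusted p 6.5e-08). The nucleotidases NT5C3B and NT5C rose by 0.62 and 0.53. DUT, the dUTPase that makes dUMP for TYMS and keeps uracil out of DNA, changed most in this list. It measured 37.5 and 37.6 TPM in the sgNS libraries against 18.2 and 17.5 TPM in the METTL16 KO libraries, which gave a log2 fold change of -1.07 (SE 0.055, adjusted p 2.6e-08). NUDT1 fell by 0.13. DUT, SAMHD1 and DPYD kept their direction and their call under median-ratio scaling and under quantile normalization.

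Among the listed partners of TYMS and ribonucleotide reductase, 4 of 7 genes were lower and 2 were higher, where all genes gave 25.6% and 50.1%. TXNRD1, the cytosolic thioredoxin reductase that keeps the reductase's electron donor reduced, measured 227 and 222 TPM in the sgNS libraries against 180 and 185 TPM in the METTL16 KO libraries, which gave a log2 fold change of -0.30 (adjusted p 1.3e-05). TXN fell by 0.11, while GLRX, a glutaredoxin, rose by 0.35 and TXN2, the mitochondrial thioredoxin, rose by 0.41. SHMT1 and MTHFD1, which supply the one-carbon folates, fell by 0.21 and 0.13.
Of 6 nucleoside transporters tested, 3 were higher and 2 were lower, beside 50.1% and 25.6% of all genes. SLC29A3 rose most of these, measuring 13.1 and 12.1 TPM in the sgNS libraries against 29.9 and 27.5 TPM in the METTL16 KO libraries, with a log2 fold change of 1.18 (adjusted p 6.8e-08). SLC25A33, a mitochondrial pyrimidine nucleotide carrier, rose by 0.47. The plasma membrane transporters SLC29A2 and SLC29A4 fell by 0.57 and 0.31. SLC29A1 was called at 0.15 as deposited but stood at -0.011 and was not called after median-ratio scaling (adjusted p 0.86).

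**Figure D4:**
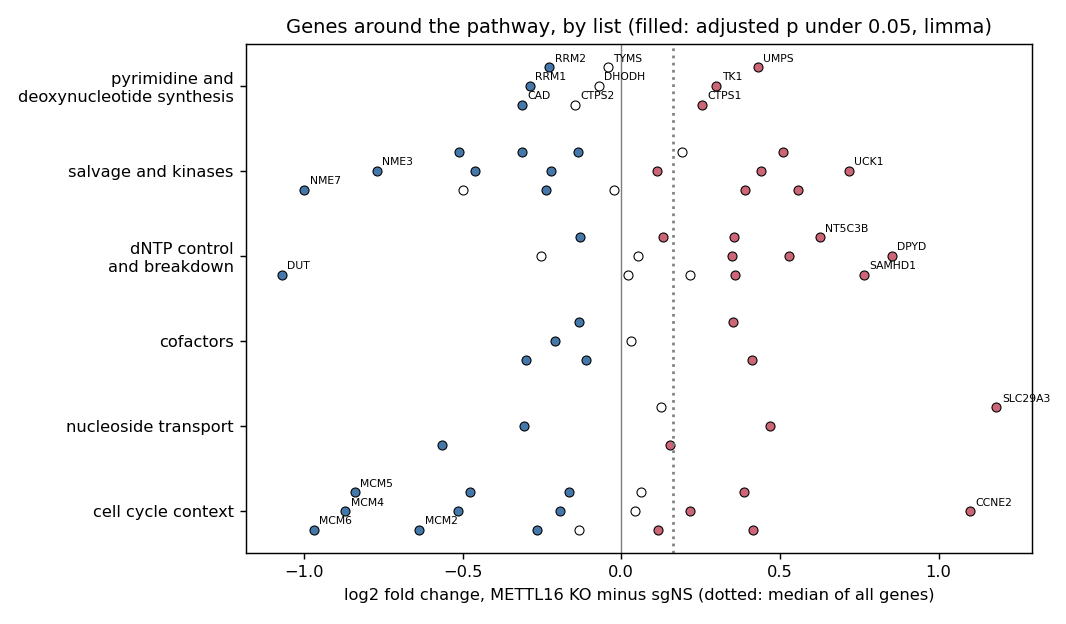
Log2 fold changes (METTL16 KO minus sgNS) of the tested genes of 6 lists, 1 point per gene, filled where the adjusted p was under 0.05 (blue lower, red higher); the dotted line is the median of all genes, 0.16. The 9 synthesis genes lie between -0.31 and 0.43, while DUT lies at -1.07 and SLC29A3 at 1.18.

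Cell cycle genes were listed beside these values because several of the 9 genes are expressed with S phase. Of 17 genes, 9 were lower and 5 were higher, with a median of -0.17, whereas 25.6% of all genes were lower and 50.1% higher. MCM6, MCM4, MCM5 and MCM2, subunits of the replicative helicase, fell by 0.97, 0.87, 0.84 and 0.64, while MCM3 of the same complex rose by 0.39. PCNA, the sliding clamp of replication, measured 498 and 507 TPM in the sgNS libraries against 358 and 365 TPM in the METTL16 KO libraries and fell by 0.48 on the log2 scale. CCNE2, a cyclin of S phase entry, rose by 1.10 and E2F3 rose by 0.42, whereas CCNE1, at 0.22, was no longer called after median-ratio scaling (adjusted p 0.52). The S phase cyclin CCNA2 had a log2 fold change of 0.042 (adjusted p 0.40), E2F1 of 0.062 (adjusted p 0.28) and the proliferation marker MKI67 of -0.13 (adjusted p 0.082), and these were not called as deposited. With median-ratio scaling MKI67 was called lower at -0.30 (adjusted p 0.0017), as was CCNA2 at -0.12 (adjusted p 0.032), and MKI67 was also called lower with quantile normalization (-0.31, adjusted p 0.0024) and after rescaling without histone genes (-0.20, adjusted p 0.016). The summed level of the 17 genes was 2026 and 2002 TPM in sgNS and 1601 and 1585 TPM in METTL16 KO. RRM1 and RRM2 moved in the direction of PCNA and 5 of the 6 MCM genes. TYMS was not called as deposited, but with median-ratio scaling it was called lower, at -0.21 with an adjusted p of 0.00067. TK1 moved in the direction of the 5 listed genes called higher, among them MCM3 and CCNE2. The part of cell cycle phase in the changes of the 9 genes was not tested.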

How the data were processed

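RNA-seq libraries of Huh7 cells (2 sgNS, 2 METTL16 KO) were analysed. According to the study's methods and the labels, paired reads were trimmed (Cutadapt), aligned to GRCh38 (STAR) and summarized per gene (RSEM) by the authors; tool versions and the annotation are not given in the sources used here. The deposited unit is called RPKM in the methods, but as every library adds up to 1000000, the values deposited by the authors were taken as TPM, for which no count test can be run. The labels name both rRNA depletion and an mRNA kit.

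Genes with a mean of at least 1 TPM were tested on log2(TPM + 0.1) with limma 3.58.1 in R 4.3.3 (moderated by a trend of variance on mean, no replicate block), and Benjamini-Hochberg adjustment covered all 11971 genes. Fold changes on this scale understate the change of low genes. The study states 2 biological replicates, and p-values measure only the spread between these libraries. On simulated data for 11971 genes, 86 of 100 genes changed by 1 on the log2 scale were recovered, and 24 of 100 changed by 0.3. All other genes were left unchanged there, whereas 25.6% were called lower and 50.1% higher in the data. The adjustment was thus stricter in the simulation, and its shares do not give the recovery in the data. The 9 genes and the lists were chosen with earlier results of these data known, and 1 planned ratio and part of the list of partners are not reported here. Named were all 9 genes, the partners in ratios and, per list, at most 4 called genes per direction, by size of change. UCK2, NME1, NME2, TXN, PCNA, CCNA2, E2F1, MKI67, ENOSF1, TYMSOS and marker genes were added after their values were seen. Annotation was GENCODE release 44 and promoters were from RefSeq (GRCh38.p14). Alternatives were other pseudocounts, filters, scalings, a model without trend, a replicate block and each library left out.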

Additional observations from a re-analysis of the deposited data

How the results depend on the processing

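CAD, RRM1 and RRM2 were called lower and UMPS and TK1 were called higher under each of the 13 alternatives, with log2 fold changes from -0.49 to -0.27 for CAD, -0.45 to -0.24 for RRM1, -0.39 to -0.21 for RRM2, 0.26 to 0.46 for UMPS and 0.13 to 0.36 for TK1. CTPS1 was called under 11 of 13. Over the alternatives that kept every library, 13 to 20 of the other pathway genes were lower and 16 to 20 were higher. Of all genes, 18.2% to 36.5% were lower and 36.4% to 52.1% higher in these. Of the 9 genes, 3 were called lower as reported, 6 by median-ratio scaling, 6 by quantile normalization and 5 after rescaling without histone genes. In the same order, 25.6%, 36.5%, 35.5% and 29.6% of all genes were called lower. Histone genes took 11.0% of each sgNS library and 6.81% and 6.93% of the METTL16 KO libraries. Median-ratio scaling and the rescaling divide a library by 1 factor and so lower all log2 fold changes by a like amount, while for quantile normalization the cause was not tested. Of all genes called, 66.2% were higher as deposited, 49.9% after median-ratio scaling and 51.0% after quantile normalization. With median-ratio scaling 36.5% of all genes were lower and 36.4% higher. Leaving out 1 library gave 3 to 4 of the 9 genes lower. CTPS2 was called lower without sgNS replicate 2 (adjusted p 0.040). DHODH ranged from -0.15 to 0.011 and turned to 0.011 without METTL16 KO replicate 1, and it was not called in any of these. A lone library was assumed to vary like the other group.

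With the replicate number as a block, 3 of the 9 genes were lower and 3 higher, beside 26.0% and 50.5% of all genes. Same-numbered libraries had a correlation of deviations of -0.044 across genes. With 2 libraries a group, this cannot tell whether they also shared a culture or a preparation. The block changed no call of the 9 genes. The depth of the libraries is unknown, and with 2 libraries a group the p-values rest on limma's shared estimate of the spread.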
